A study of Mus musculus with 25 samples.

Results

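The collagen genes of the mouse were described across 25 RNA-seq libraries of mammary organoids. They were taken as every gene whose symbol is Col, a number, a and a number, which gave 44 of the 34866 genes in the table. Organoids are the epithelium-enriched fragments left after mammary glands are minced and digested with collagenase and trypsin. All mice were Brca1/P53-deficient: loxP-flanked (f/f) alleles of both genes are cut out by Cre under the keratin promoter K14, which is active in basal epithelium, so that only a part of the mammary cells has lost them. There were 5 groups of 5 libraries. Multiparous mice had completed 2 pregnancies with lactation, and received a single injection of cabergoline or were left untreated when the last litter was weaned. Cabergoline activates dopamine receptors of the pituitary and thereby blocks the release of prolactin, and the labels give its dose as 0.2 mg per kg. The groups were cabergoline-treated mice at 60 days after weaning, untreated mice at 60 days, cabergoline-treated mice at 1 day, untreated mice at 1 day and nulliparous mice age-matched to those of 60 days. The times came from separate sets of mice, so time and experiment cannot be told apart.

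Collagens are trimers of α chains, each chain encoded by a separate gene, which are hydroxylated and folded in the endoplasmic reticulum, secreted, trimmed and crosslinked. Fibrillar collagens (types I, II, III, V, XI, XXIV and XXVII) form the fibres of connective tissue, while type IV collagen forms the network of basement membranes that surrounds mammary ducts, adipocytes and vessels. In the mammary gland fibroblasts make most of the fibrillar chains, and after weaning the collagen around the regressing alveoli is remodelled while the gland returns to a ductal tree in fat. The other classes are the beaded filaments of type VI, the FACIT collagens that decorate fibres, the multiplexins of vascular basement membranes, the transmembrane collagens, the short-chain network collagens, and the anchoring fibrils of type VII with types XXVI and XXVIII.

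Levels are given as scaled TPM, the deposited values (TPM, transcripts scaled to the same total in each library) divided by 1 factor per library, because the deposited values of the times were not on a common scale. A single transcript, Gm12895, held 28.0% to 56.8% of all TPM at 1 day and 0% to 10.5% in the other libraries. Transcripts of 8 milk proteins summed to 184128 to 813230 scaled TPM in cabergoline-treated and 2314 to 1196317 in untreated mice at 1 day. In the other libraries they summed to 29.8 to 33129. The part of either in the difference of scale was not tested. Sequencing depth cannot be read from TPM and is unknown here. Of the 44 collagens, 43 reached 1 TPM in at least 5 libraries and 21 did so in all 25. Col19a1, a FACIT collagen, was the 1 that did not, with at most 1.11 scaled TPM. By class, the 11 fibrillar, 6 basement membrane, 6 beaded filament, 2 multiplexin, 4 transmembrane, 3 short-chain and 3 anchoring fibril and other collagens all passed in at least 5 libraries, as did 8 of the 9 FACIT collagens. The median level over the 25 libraries was highest for Col3a1 at 190 scaled TPM, Col4a1 at 140, Col1a2 at 81.1 and Col1a1 at 75.7.

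The epithelial label of the organoids was checked against 21 epithelial markers (keratins, Epcam, Cdh1, claudins and others). Their summed level was between 87.1 and 382 scaled TPM in cabergoline-treated mice at 60 days and between 86.6 and 98.3 in untreated mice at 60 days apart from replicate 2, which had 3600. The sum at 1 day was between 923 and 3166 in cabergoline-treated mice and between 622 and 4171 in untreated mice apart from replicate 3, which had 100, and in nulliparous mice it was between 224 and 3189. In 9 of the 10 libraries of 60 days the sum was thus below that of 9 of the 10 libraries of 1 day, and these held little epithelial RNA for an epithelial label. T cell markers ran between 129 and 1035 scaled TPM in cabergoline-treated mice at 60 days, 12.0 and 973 in untreated mice at 60 days, 17.0 and 672 in cabergoline-treated mice at 1 day, 17.8 and 796 in untreated mice at 1 day, and 16.1 and 836 in nulliparous mice. In such bulk samples fewer cells of a type and less RNA per cell cannot be told apart.

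Of the fibrillar chains of types I and III, Col3a1 was the most abundant collagen in every library of 1 day. In many libraries of 60 days and of nulliparous mice Col4a1, a basement membrane chain, was above it. Col1a1 (chr11:94936224-94953042, as all gene positions in GRCm38), the α1 chain of type I collagen, was at 41.8, 37.4, 114, 73.7 and 39.6 scaled TPM in cabergoline-treated mice and at 75.7, 37.2, 134, 89.1 and 38.5 in untreated mice at 60 days. Libraries of 1 day had 134, 56.3, 129, 90.5 and 55.4 in cabergoline-treated mice and at 127, 54.7, 69.5, 120 and 99.6 in untreated mice, and the 5 nulliparous libraries had 91.2, 35.3, 64, 102 and 643. The groups overlapped throughout, and nulliparous replicate 5 stood far above every other library. Col1a2 (chr6:4504814-4541544), the other chain of type I, was at 78.3, 69.6, 215, 89.4 and 73.5 scaled TPM in cabergoline-treated mice and at 135, 72.7, 235, 152 and 55.4 in untreated mice at 60 days. It was at 116, 51.3, 102, 76.5 and 44.5 in cabergoline-treated and at 92.7, 48.6, 71.5, 81.1 and 77.4 in untreated mice at 1 day, and at 186, 77.2, 105, 190 and 749 in nulliparous mice. Here too nulliparous replicate 5 was the highest, followed by replicate 3 of each group of 60 days.

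Col3a1 (chr1:45311538-45349706), the chain of type III collagen, which is laid down early in loose connective tissue, was even in most cabergoline-treated mice at 60 days, at 102, 97.3, 409, 97.6 and 97.1 scaled TPM, against 96.9, 61.7, 395, 206 and 56.1 in untreated mice at 60 days. It was at 340, 142, 314, 242 and 119 in cabergoline-treated and at 343, 103, 190, 290 and 299 in untreated mice at 1 day, and at 715, 59.1, 107, 208 and 517 in nulliparous mice. Replicate 3 was the highest of both groups of 60 days, and its fibroblast markers (13 genes) also had the highest sum of each group, 1833 scaled TPM in the cabergoline-treated library and 3409 in the untreated one, where the other libraries of the groups had 444 to 622 and 275 to 1389. Those libraries also held skeletal muscle markers, at 17507 scaled TPM in the cabergoline-treated one, where the others of its group had 131 to 2366, and at 8229 in the untreated one, where the others had 165 to 26124. The part of these cells in the levels was not tested.

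The start regions of Col1a2 and Col3a1 are shown because these are among the 3 most abundant collagens by median and differ in base composition and motifs. RefSeq (GRCm38.p6) gives 300 bases for each, from 250 before to 50 after its start of the gene. The windows are chr6:4505368-4505667 and chr1:45311288-45311587, both on the plus strand. For Col1a2 the RefSeq start is 4505618, which lies inside the gene position given above, so its window does too. Capitals mark the CCAAT box (CCAAT), the GC box (GGGCGG) and the TATA box (TATAAA) on either strand, and no marks overlap.
Col1a2: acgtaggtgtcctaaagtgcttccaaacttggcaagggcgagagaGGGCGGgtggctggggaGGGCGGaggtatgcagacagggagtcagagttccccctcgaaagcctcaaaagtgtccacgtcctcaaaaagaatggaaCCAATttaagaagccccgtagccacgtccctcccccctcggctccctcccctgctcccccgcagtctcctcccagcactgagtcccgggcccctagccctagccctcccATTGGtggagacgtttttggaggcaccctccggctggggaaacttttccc
Col3a1: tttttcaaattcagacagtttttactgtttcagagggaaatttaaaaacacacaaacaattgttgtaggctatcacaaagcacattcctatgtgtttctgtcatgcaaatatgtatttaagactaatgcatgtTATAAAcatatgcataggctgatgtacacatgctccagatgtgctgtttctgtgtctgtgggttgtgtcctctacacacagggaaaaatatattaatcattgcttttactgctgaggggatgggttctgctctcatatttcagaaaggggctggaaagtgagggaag
Col1a2 held 2 CCAAT and 2 GGGCGG, with 61% G and C, and Col3a1 held 1 TATAAA and 37.7% G and C. Of the 32851 such windows in RefSeq, 37.4% held CCAAT, 13.6% TATAAA and 35.7% GGGCGG, and of the 38 windows of 35 collagens, 13 held the first, 5 the second and 23 the third. Such matches are letters in a window and were not tested as binding sites.

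**Figure D1:**
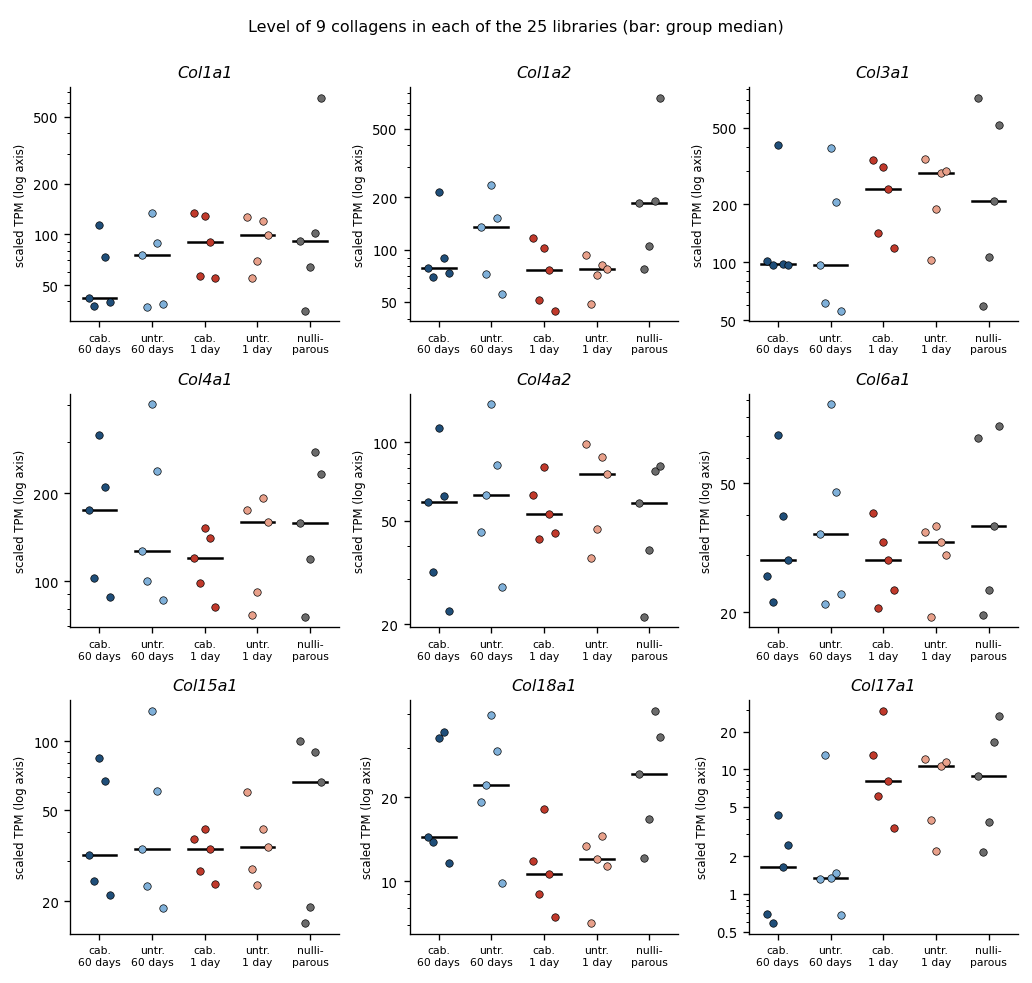
Scaled TPM of 9 collagens on a log axis in each library, by group, with bars at the group medians. Nulliparous replicate 5 was highest for Col1a1 and Col1a2, at 643 and 749 scaled TPM, and Col17a1 was lowest in the groups of 60 days.

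Type V chains (Col5a1, Col5a2, Col5a3), which nucleate the fibres of type I, had medians over the libraries of 14.8, 13.5 and 11.5 scaled TPM. The highest library was nulliparous replicate 5 for Col5a1 (74.7) and Col5a2 (78.7) and untreated 60 days replicate 3 for Col5a3 (46.1). Among the type VI chains, which form beaded filaments around cells, Col6a1 (chr10:76708792-76726168) was at 25.9, 21.6, 70.6, 39.7 and 29.1 scaled TPM in cabergoline-treated and at 34.8, 21.3, 87.5, 47 and 22.8 in untreated mice at 60 days. It was at 40.5, 20.7, 32.9, 29 and 23.5 in cabergoline-treated and at 35.5, 19.4, 36.9, 32.9 and 30.1 in untreated mice at 1 day, and at 68.8, 19.6, 23.5, 36.8 and 75 in nulliparous mice. Its partners Col6a2 and Col6a3 had medians of 34.3 and 46.2, while Col6a4, Col6a5 and Col6a6 had medians of 0.933, 0.585 and 0.951. Col6a4 reached 28.9 scaled TPM in cabergoline 60 days replicate 4, and the next highest library had 4.89.

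Type IV collagen is built from 6 chains encoded in head-to-head gene pairs, and Col4a1 with Col4a2 is the pair found in nearly all basement membranes. Col4a1 (chr8:11198423-11312826) was at 175, 102, 317, 210 and 87.8 scaled TPM in cabergoline-treated and at 127, 100, 403, 239 and 85.8 in untreated mice at 60 days. The libraries of 1 day were at 120, 98.7, 152, 140 and 81.4 in cabergoline-treated and at 175, 76.5, 91.6, 192 and 159 in untreated mice, and nulliparous mice had 158, 75.4, 119, 277 and 232. Col4a2 (chr8:11312805-11449287) was at 58.8, 31.7, 114, 62.2 and 22.5 scaled TPM in cabergoline-treated and at 45.3, 62.7, 140, 81.7 and 27.9 in untreated mice at 60 days. At 1 day it was at 62.8, 42.5, 80.7, 53.2 and 44.8 in cabergoline-treated and at 98.2, 36, 46.5, 87.8 and 75.4 in untreated mice, and nulliparous mice had 58.6, 21.4, 38.6, 77.9 and 80.9. Both chains were highest in replicate 3 of each group of 60 days, and their groups overlapped. The endothelial markers of those libraries (10 genes) summed to 1627 scaled TPM in cabergoline 60 days replicate 3 and 1860 in untreated 60 days replicate 3, where the other libraries of the groups had 406 to 2019 and 307 to 1130. Their part in the levels of Col4a1 and Col4a2 was not tested.

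The starts of Col4a1 and Col4a2 lie 21 bases apart on opposite strands, so that the first bases of both genes overlap and the RefSeq windows share 78 bases. They are shown because the start regions of both chains lie in a single stretch. Without strand, reads from the shared bases cannot be assigned to either gene. The Col4a1 window is chr8:11312777-11313076 on the minus strand and that of Col4a2 is chr8:11312555-11312854 on the plus strand, with the same marks as above.
Col4a1: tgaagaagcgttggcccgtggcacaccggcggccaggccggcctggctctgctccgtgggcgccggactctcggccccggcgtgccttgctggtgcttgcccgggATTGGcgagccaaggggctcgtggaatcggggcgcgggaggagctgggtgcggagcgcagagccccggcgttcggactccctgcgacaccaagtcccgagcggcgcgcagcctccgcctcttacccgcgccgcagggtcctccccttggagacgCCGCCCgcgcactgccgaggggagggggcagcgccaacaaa
Col4a2: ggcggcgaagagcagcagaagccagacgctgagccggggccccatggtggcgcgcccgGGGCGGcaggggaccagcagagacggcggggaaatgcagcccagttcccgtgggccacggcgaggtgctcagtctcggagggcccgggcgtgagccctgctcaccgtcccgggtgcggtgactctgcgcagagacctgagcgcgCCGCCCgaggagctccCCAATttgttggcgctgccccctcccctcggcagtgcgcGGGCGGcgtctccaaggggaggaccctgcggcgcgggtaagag
Col4a1 held 1 CCAAT and 1 GGGCGG, Col4a2 held 1 CCAAT and 3 GGGCGG, neither held TATAAA, and G and C made up 74% and 73.7% of the bases. The pair Col4a5 and Col4a6 on the X chromosome, which is found in the basement membrane of stratified and glandular epithelia, starts 1343 bases apart, and its windows are chrX:141475169-141475468 on the plus strand and chrX:141474027-141474326 on the minus strand.
Col4a5: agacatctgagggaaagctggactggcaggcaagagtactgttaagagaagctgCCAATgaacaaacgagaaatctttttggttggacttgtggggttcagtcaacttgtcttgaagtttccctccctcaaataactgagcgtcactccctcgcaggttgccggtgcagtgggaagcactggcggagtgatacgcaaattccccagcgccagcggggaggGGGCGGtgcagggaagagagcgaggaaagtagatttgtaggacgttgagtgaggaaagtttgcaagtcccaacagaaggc
Col4a6: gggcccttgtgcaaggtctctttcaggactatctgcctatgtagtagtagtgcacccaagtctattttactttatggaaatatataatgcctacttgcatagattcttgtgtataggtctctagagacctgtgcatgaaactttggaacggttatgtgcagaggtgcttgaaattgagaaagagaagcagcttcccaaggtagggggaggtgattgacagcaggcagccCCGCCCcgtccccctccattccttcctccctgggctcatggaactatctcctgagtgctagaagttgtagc
Col4a5 held 1 CCAAT and 1 GGGCGG and Col4a6 held 1 GGGCGG. The remaining pair, Col4a3 and Col4a4, best known from kidney and lung, had medians of 2.85 and 0.635 scaled TPM.

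Col4a5 and Col4a6 followed another order than Col4a1 and Col4a2. Col4a5 was at 0.918, 2.22, 9, 5.61 and 3.01 scaled TPM in cabergoline-treated and at 1.43, 24.3, 5.46, 4.32 and 0.724 in untreated mice at 60 days. Levels at 1 day were 29.1, 15.9, 38.1, 18.6 and 8.39 in cabergoline-treated and at 18.1, 9.18, 1.41, 22.9 and 28.2 in untreated mice, and nulliparous mice had 10.7, 2.9, 4.87, 14.6 and 57.8. The low library of untreated mice at 1 day and the high library of untreated mice at 60 days were those whose epithelial markers were likewise at odds with their groups. Col17a1 (chr19:47646344-47692094), the transmembrane collagen that anchors basal epithelial cells in hemidesmosomes, was at 0.687, 0.585, 4.29, 1.65 and 2.47 scaled TPM in cabergoline-treated and at 1.31, 13.1, 1.35, 1.46 and 0.68 in untreated mice at 60 days. Levels of 1 day were 12.9, 6.1, 29.5, 8.06 and 3.41 in cabergoline-treated and at 12.1, 3.93, 2.2, 10.6 and 11.4 in untreated mice, and nulliparous mice had 8.9, 2.18, 3.8, 16.4 and 26.5. The library with 29.5 was also the only one with keratinocyte markers above 9.63 scaled TPM, at 606, and their part in its level was not tested.

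Among the 15 libraries of 60 days and nulliparous mice, the 3 with the highest epithelial markers were untreated 60 days replicate 2 and nulliparous replicates 4 and 5. In 8 of the 43 collagens considered (Col4a5, Col4a6, Col7a1, Col9a1, Col9a2, Col9a3, Col16a1 and Col17a1) these same 3 libraries held the 3 highest levels, which was so for 4.82% of the 18778 genes considered. Col16a1, a FACIT collagen found near basement membranes, reached 257, 138 and 98.4 scaled TPM in nulliparous replicate 5, untreated 60 days replicate 2 and nulliparous replicate 4, against 38.3 at most in the other 12. Col7a1, the chain of the fibrils that fasten the epithelial basement membrane to the matrix below, reached 73.4, 64.4 and 50.4 in them.

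**Figure D2:**
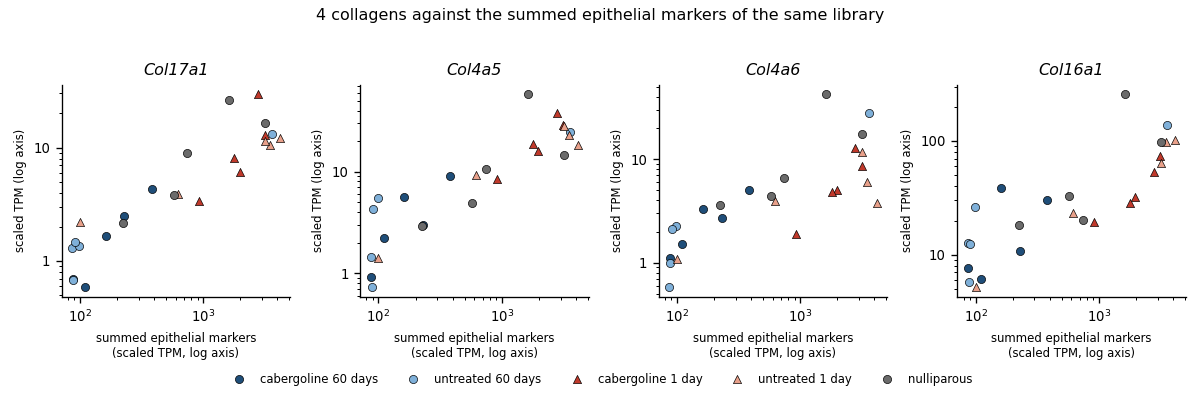
Scaled TPM of Col17a1, Col4a5, Col4a6 and Col16a1 against the summed scaled TPM of 21 epithelial markers in the same library, both on log axes, 1 point per library coloured by group. Untreated 60 days replicate 2, whose epithelial markers summed to 3600, lies at the right, apart from the other 9 libraries of 60 days, whose markers summed to at most 382 and whose Col16a1 reached 38.3 scaled TPM.

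The multiplexins, whose C-terminal fragments include endostatin, lie in vascular and epithelial basement membranes. Col15a1 (chr4:47208161-47313167) was at 32, 24.6, 84.1, 66.8 and 21.4 scaled TPM in cabergoline-treated and at 34, 23.4, 136, 60.7 and 18.7 in untreated mice at 60 days. At 1 day it was at 37.6, 27.2, 41.6, 33.7 and 23.9 in cabergoline-treated and at 60, 27.8, 23.6, 41.3 and 34.4 in untreated mice, and nulliparous mice had 100, 16.1, 19, 89.4 and 66.1. Col18a1 (chr10:77052178-77166548) was at 14.4, 13.9, 32.8, 34.4 and 11.6 scaled TPM in cabergoline-treated and at 19.2, 22.1, 39.4, 29.4 and 9.89 in untreated mice at 60 days. At 1 day it was at 11.8, 9, 18.2, 10.6 and 7.45 in cabergoline-treated and at 13.4, 7.09, 12, 14.6 and 11.4 in untreated mice, and nulliparous mice had 24.2, 12.1, 16.7, 41 and 33. Its medians of 60 days were above those of 1 day, with overlap.

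Nulliparous replicate 5 was the library with the highest level for 15 of the 44 collagens (34.1%), where it was the highest for 3.73% of the genes considered. Its collagens made up 0.878% of all deposited TPM, against 0.0312% to 0.314% in the other 24 libraries. Several of these chains are known from cartilage. Col2a1, the fibrillar chain of cartilage, was at 384 scaled TPM, and untreated 60 days replicate 2 was next with 15.9. Col11a1, which nucleates those fibres, was at 204, and the next library had 6.81. The type IX chains Col9a1, Col9a2 and Col9a3, which coat cartilage fibres, were at 14.7, 63 and 192, and Col9a1 was higher only in untreated 60 days replicate 2, at 61.5. The cartilage markers, 6 genes that are no collagens, summed to 128 scaled TPM in this library and to 26.7, 2.71, 10.7 and 17.4 in the other nulliparous libraries, against 0.0329 to 5.68 in the multiparous ones. Of these, Acan was at 14.7, Cnmd at 49.7 and Snorc at 57.1 scaled TPM, while Matn1 was at 0.027 and Matn3 at 0.6. Col8a2, a short-chain collagen, was at 30.1 and Col12a1, a FACIT of tendon and fascia, at 114 in the same library, where the next libraries had 2.48 and 20.8. Untreated 60 days replicate 3 was the highest library for 12 collagens and nulliparous replicate 1 for 6.

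**Figure D3:**
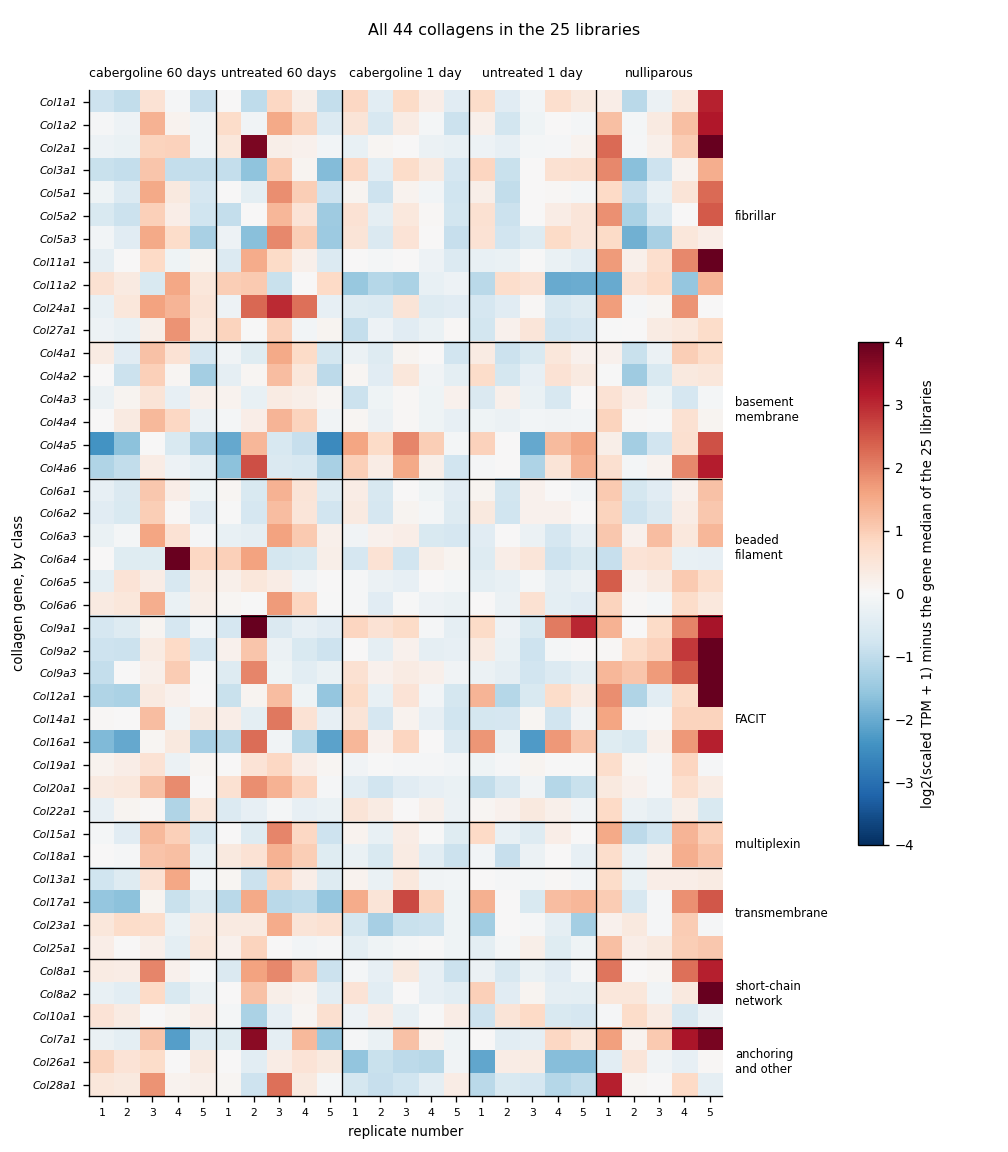
Each of the 44 collagens (rows, by class) in the 25 libraries (columns, by group), as log2(scaled TPM + 1) minus the median of that gene. The reddest column is nulliparous replicate 5, highest for 15 collagens, and Col4a5, Col4a6, Col16a1 and Col17a1 are pale or blue in many libraries of 60 days.

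Cabergoline was compared with no treatment at each time with limma on log2(scaled TPM + 1), where a gene is called at an adjusted p (Benjamini-Hochberg over all genes tested) of 0.05 or less. At 60 days 0 of the 40 collagens tested were called, as were 0% of the 17644 genes. At an unadjusted p of 0.05 the counts were 0 collagens and 213 genes (1.21%). The log2 fold change was above 0 for 10 of the 40 collagens (25%) and for 50% of genes, with a median of -0.12 for the collagens and 0.00 for all genes. In 0 collagens the groups did not overlap, as was so for 0.153% of genes in each direction. Leaving out 1 library moved the collagen median to between -0.34, without cabergoline 60 days replicate 3, and 0.16, without untreated 60 days replicate 3, the libraries highest in fibroblast markers in their groups. The smallest p among higher values were those of Col26a1 (log2 fold change 0.33 ± 0.24 SE), Col10a1 (0.44 ± 0.35) and Col6a4 (0.46 ± 0.84), and among lower values those of Col7a1 (-0.96 ± 0.92), Col24a1 (-0.67 ± 0.69) and Col23a1 (-0.27 ± 0.32). Their adjusted p from limma was 1. Col1a1 differed by -0.26 ± 0.43, Col3a1 by 0.10 ± 0.60 and Col4a1 by -0.00 ± 0.49.

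At 1 day 0 of the 28 collagens tested were called after cabergoline, as were 0% of the 14733 genes. At an unadjusted p of 0.05 there were 1 collagen and 287 genes (1.95%). The log2 fold change was above 0 for 13 of the 28 collagens and for 54.2% of genes, with a median of -0.05 for the collagens and 0.02 for all genes. Without untreated 1 day replicate 2 the collagen median was -0.14, and without cabergoline 1 day replicate 5 it was 0.09. Col9a3 was the collagen with p below 0.05. It was at 9.86, 7.03, 8.04, 7.34 and 5.53 scaled TPM in cabergoline-treated mice against 5.11, 4.56, 3.19, 3.94 and 4.6 in untreated mice, a log2 fold change of 0.69 ± 0.17 with an adjusted p of 1 in limma. Its groups did not overlap, which was so for 0.204% of genes in the same direction. An exon of Col9a3 overlaps Tcfl5 on the opposite strand, and their reads cannot be told apart without strand. Apart from it, the smallest p were those of Col20a1 (0.32 ± 0.20) and Col4a5 (0.70 ± 0.67) among higher values and of Col4a2 (-0.21 ± 0.30), Col4a1 (-0.17 ± 0.29) and Col15a1 (-0.14 ± 0.25) among lower ones. The difference between both effects of cabergoline, 60 days minus 1 day, was called in 0 of 40 collagens and in 0% of 18232 genes, with 0 collagens and 257 genes (1.41%) at an unadjusted p of 0.05 in limma. It was above 0 for 12 of 40 collagens and 50% of genes, with a median of -0.10 for the collagens and 0.00 for all genes. The collagen median was -0.30 without cabergoline 60 days replicate 3 and 0.09 without untreated 60 days replicate 3. The smallest p were those of Col10a1 (0.27 ± 0.48), Col26a1 (0.31 ± 0.59) and Col5a3 (0.37 ± 0.89) above 0 and of Col9a3 (-0.76 ± 0.57), Col24a1 (-0.81 ± 0.76) and Col7a1 (-1.03 ± 1.04) below 0, with an adjusted p of 1 in limma.

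**Figure D4:**
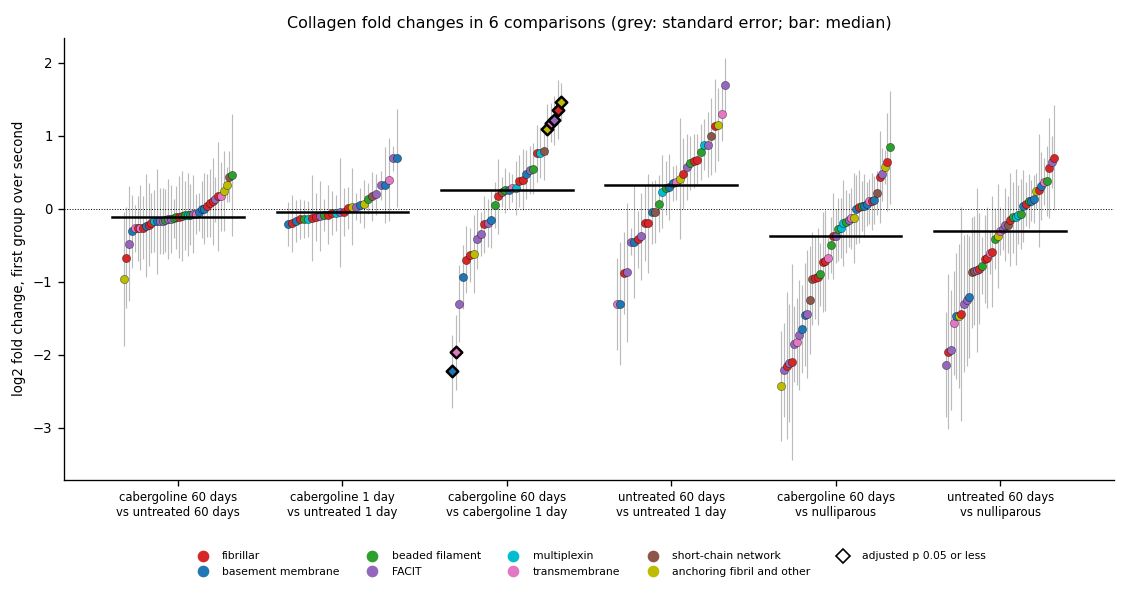
Log2 fold change of each collagen tested, first group over second, in 6 comparisons, with grey standard errors, colours by class and bars at the median. The 7 diamonds, all between cabergoline-treated mice at 60 days and 1 day, are the collagens called by limma.

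Between the times, cabergoline-treated mice had 7 of 32 collagens called, the same share as the 21.9% of all 16457 genes that were called. The collagens higher at 60 days were Col26a1, Col23a1, Col20a1, Col11a2 and Col28a1 (5 of 32, where 10.2% of genes rose) and those lower were Col4a5 and Col17a1 (2 of 32, where 11.7% fell). The log2 fold change was above 0 for 20 of 32 collagens and for 56.3% of genes, with a median of 0.25 for the collagens and 0.11 for all genes. Without cabergoline 60 days replicate 3 the collagen median was 0.02, the lowest of the leave-outs of 1 library, and the highest was 0.32. With TPM as deposited, which moves the median of all genes to 1.42, 24 collagens were called higher and 0 lower, and library quality weights gave 6 higher and 8 lower. Col26a1 (chr5:136741759-136883209), a secreted collagen best known from testis and ovary, rose to 77.7, 61.3, 69.5, 41.8 and 54.2 scaled TPM at 60 days, against 13.4, 21.8, 19.6, 18.9 and 37.8 at 1 day. Its log2 fold change was 1.46 ± 0.26 (adjusted p = 0.00423, limma), and the groups did not overlap, as for 9.48% of genes in that direction. In untreated mice at 1 day Col26a1 was at 50.9 and 52.6 in the 2 libraries with T cell markers of 763 and 796 scaled TPM and at 9.1 to 12 in the 3 libraries with 17.8 to 20.4. At 60 days cabergoline replicate 3 had the lowest T cell markers of its group, at 129, with Col26a1 at 69.5. Untreated 60 days replicate 2 had the lowest of its group, at 12.0, with Col26a1 at 31.1. The T cell markers of cabergoline-treated mice summed to 129 to 1035 at 60 days and 17.0 to 672 at 1 day. Their part in the difference was not tested.

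Col20a1 (chr2:180986535-181018363), a FACIT collagen, rose to 6.46, 6.76, 12.2, 20.6 and 4.82 scaled TPM at 60 days, against 3.37, 2.45, 3.22, 3.63 and 3.84 at 1 day (log2 fold change 1.21 ± 0.34, adjusted p = 0.0293, limma), without overlap. Col23a1 (chr11:51289920-51583918), a transmembrane collagen, rose to 4.44, 5.53, 5.47, 2.3 and 4.02 against 1.45, 0.577, 1.15, 1.18 and 2.54 (1.18 ± 0.27, adjusted p = 0.0123, limma). Col11a2 (chr17:34039437-34066685), a type XI chain, rose to 18.8, 15.5, 7.61, 37.3 and 16.7 against 3.5, 4.84, 4.43, 9.59 and 10.2 (1.36 ± 0.40, adjusted p = 0.0361, limma). In untreated mice at 1 day Col11a2 was at 20.3 and 18.2 in replicates 2 and 3, which were high in T cell markers, and at 2.22 to 5.18 in the others. The libraries lowest in T cell markers at 60 days had 7.61 (cabergoline replicate 3) and 26 (untreated replicate 2). The part of T cells in the level of Col11a2 was not tested. Col28a1 (chr6:7997808-8192617), found around Schwann cells of peripheral nerve, rose to 2.32, 2.12, 7.33, 1.64 and 1.74 against 0.481, 0.271, 0.373, 0.86 and 1.92 (1.09 ± 0.35, adjusted p = 0.0494, limma). The groups of Col23a1, Col11a2 and Col28a1 overlapped. Of the 10 leave-outs of a single library, 8 ended the call of Col28a1, 6 that of Col11a2 and 4 that of Col20a1, while 0 ended that of Col26a1 or Col23a1. The Schwann cell markers of these mice summed to 100 to 487 scaled TPM at 60 days and 39.6 to 88.4 at 1 day, and 3 of the 5 tested were called higher. Their part in the level of Col28a1 was not tested.

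Col4a5 fell to a mean of 4.15 ± 3.21 scaled TPM in cabergoline-treated mice at 60 days, against 22.0 ± 11.7 at 1 day (SD, n = 5 each), a log2 fold change of -2.23 ± 0.50 in limma (adjusted p = 0.0112), and the groups overlapped. Col17a1 fell to 1.94 ± 1.52 at 60 days, against 12.0 ± 10.4 at 1 day (SD, n = 5 each), a log2 fold change of -1.97 ± 0.52 (adjusted p = 0.0235, limma), and these groups overlapped too. In 0 collagens did the groups part without overlap in this direction, where 10.3% of genes did. Leaving out 1 library moved the adjusted p of Col17a1 to between 0.0122 and 0.0619 and that of Col4a5 to between 0.00589 and 0.0341 (limma). With TPM as deposited neither was called, at -0.86 for Col4a5 and -0.76 for Col17a1. In the same comparison 17 of the 20 epithelial markers tested were called lower, their sum was between 87.1 and 382 scaled TPM at 60 days and between 923 and 3166 at 1 day, and their part in the fall of Col4a5 and Col17a1 was not tested.

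Untreated mice at 60 days had 0 of 32 collagens called against untreated mice at 1 day, where 1.23% of 16312 genes were called. At an unadjusted p of 0.05 there were 5 collagens (15.6%) and 20.3% of genes in limma. The log2 fold change was above 0 for 20 of 32 collagens and for 57% of genes, with a median of 0.33 for the collagens and 0.11 for all genes. Leave-outs of 1 library gave collagen medians of 0.05, without untreated 60 days replicate 3, to 0.48. With TPM as deposited the median of all genes was 1.61, and 23 collagens were called higher and 0 lower, while library quality weights gave 13 called higher and 5 lower. Col20a1 was at 7.94, 20.3, 14.2, 9.47 and 4.69 scaled TPM at 60 days against 1.91, 2.74, 4.25, 1.66 and 2.16 at 1 day (1.70 ± 0.37, adjusted p = 0.0583, limma). Col23a1 was at 4.06, 4.07, 10, 4.67 and 5.09 against 0.502, 2.95, 2.85, 2.05 and 0.553 (1.30 ± 0.37, adjusted p = 0.11, limma). The groups of both did not overlap, as for 3.26% of genes in that direction. Col18a1 had 0.88 ± 0.35, Col22a1 -0.45 ± 0.18, Col17a1 -1.31 ± 0.63 and Col3a1 -0.88 ± 0.56, the last 3 of which were above 0 with TPM as deposited (0.55, 0.17 and 1.01).

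Without untreated 60 days replicate 2 and untreated 1 day replicate 3, the libraries at odds with their groups in epithelial markers, 6 of 29 collagens were called. These were Col17a1 (-2.17 ± 0.35), Col4a5 (-2.47 ± 0.50), Col16a1 (-2.21 ± 0.55) and Col4a6 (-1.51 ± 0.39), which were lower at 60 days, and Col20a1 (1.62 ± 0.32) and Col23a1 (1.52 ± 0.40), which were higher, with adjusted p between 0.0134 and 0.0479 in limma. The leave-out was chosen after the data were seen and by markers that go with the first 4 genes, so it is no independent evidence of their direction.

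Multiparous mice at 60 days were compared with nulliparous mice, and both comparisons share the same 5 nulliparous libraries. For cabergoline-treated mice 0 of 43 collagens were called, as were 0% of 18077 genes. At an unadjusted p of 0.05 there were 9 collagens (20.9%) and 896 genes (4.96%) in limma. The log2 fold change was above 0 for 13 of 43 collagens and for 45.7% of genes, with a median of -0.37 for the collagens and -0.04 for all genes. It lay between -0.55, without cabergoline 60 days replicate 3, and -0.14, without nulliparous replicate 1, when 1 library was left out. The smallest p were those of Col9a1 (-1.86 ± 0.52), Col9a3 (-2.21 ± 0.64) and Col7a1 (-2.43 ± 0.75) among lower values and of Col26a1 (0.57 ± 0.23), Col20a1 (0.47 ± 0.36) and Col6a4 (0.84 ± 0.77) among higher ones, with adjusted p of 0.889 and above. Col9a3 was at 2.71, 6.17, 7.22, 13.4 and 6.11 scaled TPM in cabergoline-treated mice against 16.9, 14.4, 22.2, 37.4 and 192 in nulliparous mice, the only collagen whose groups did not overlap in this comparison, as for 0.393% of genes in that direction and 0.144% in the other. All 21 epithelial markers were lower than in nulliparous mice (median log2 fold change -2.46), as were the 3 cartilage markers tested (median -2.04), with 0 called. Their part in the collagen differences was not tested.

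For untreated mice at 60 days 0 of 43 collagens were called against nulliparous mice, as were 0% of 17960 genes. At an unadjusted p of 0.05 there were 2 collagens (4.65%) and 441 genes (2.46%) in limma. The log2 fold change was above 0 for 13 of 43 collagens and for 44.4% of genes, with a median of -0.30 for the collagens and -0.05 for all genes. It lay between -0.53, without untreated 60 days replicate 3, and -0.09, without untreated 60 days replicate 2, when 1 library was left out. Col9a3 was at 4.05, 26.9, 5.3, 4.4 and 4.91 scaled TPM against the same nulliparous values (-2.14 ± 0.72), and Col9a2 (-1.94 ± 0.82) and Col17a1 (-1.57 ± 0.71) followed. Without nulliparous replicate 5 Col9a2 was at -1.21. Among higher values the smallest p were those of Col20a1 (0.64 ± 0.36), Col23a1 (0.37 ± 0.32) and Col26a1 (0.24 ± 0.25), and the adjusted p of these 6 was 1. Without untreated 60 days replicate 2 and nulliparous replicates 4 and 5, a leave-out chosen after the data were seen, the medians were -0.14 for cabergoline-treated and -0.05 for untreated mice, with 0 collagens called in each. In untreated mice too all 21 epithelial markers were lower than in nulliparous mice (median log2 fold change -2.19), as were the 2 cartilage markers tested (median -2.66), with 0 called. Their part in the collagen differences was not tested.

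The ratio of 2 chains within a library does not depend on the scaling between libraries. Of 4 ratios in 6 comparisons each (24 exact two-sided permutation tests, Benjamini-Hochberg adjustment over them, smallest possible p 0.00794), 5 differed, all between the times. The ratio of Col1a1 to Col1a2 was at 0.534, 0.537, 0.532, 0.825 and 0.538 in cabergoline-treated mice at 60 days, against 1.16, 1.1, 1.27, 1.18 and 1.25 at 1 day. In untreated mice it was at 0.559, 0.511, 0.57, 0.585 and 0.695 at 60 days, against 1.37, 1.13, 0.973, 1.48 and 1.29 at 1 day. No library of 60 days reached any library of 1 day in either pair of groups. The log2 difference was -1.03 in cabergoline-treated and -1.08 in untreated mice (exact permutation p = 0.00794 and adjusted p = 0.0381 in each). Nulliparous mice, which belong to the later set, had 0.491, 0.457, 0.612, 0.534 and 0.859. Between cabergoline-treated and untreated mice the log2 difference was 0.01 at 60 days (exact permutation p = 0.968) and -0.05 at 1 day (exact permutation p = 0.659).

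**Figure D5:**
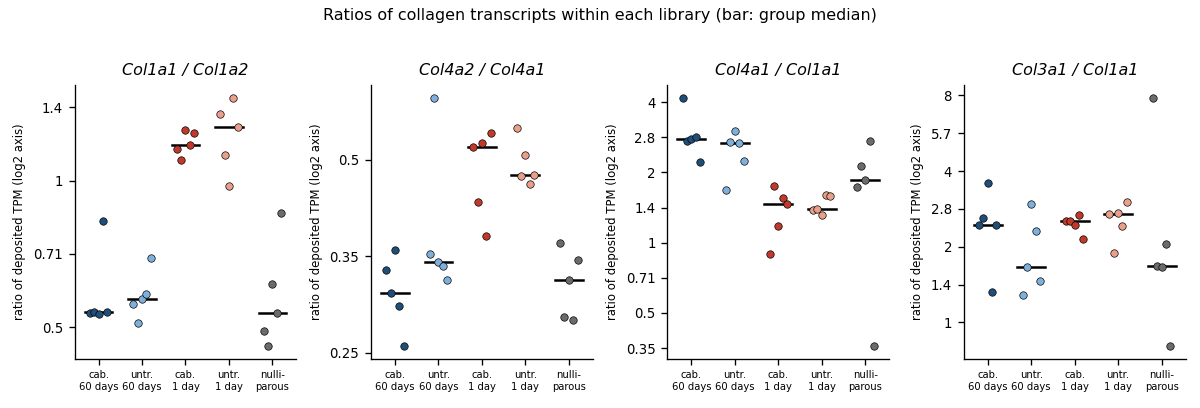
Ratio of deposited TPM of 2 collagens within each library, on a log2 axis, by group, with bars at the group medians. Col1a1 over Col1a2 lies between 0.457 and 0.859 at 60 days and in nulliparous mice and between 0.973 and 1.48 at 1 day.

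Col4a1 relative to Col1a1 sets 1 basement membrane chain against 1 fibrillar chain. It was at 4.19, 2.73, 2.77, 2.85 and 2.22 in cabergoline-treated mice at 60 days, against 0.898, 1.75, 1.18, 1.55 and 1.47 at 1 day, a log2 difference of 1.11. In untreated mice it was at 1.68, 2.7, 3.01, 2.68 and 2.23 at 60 days, against 1.38, 1.4, 1.32, 1.6 and 1.59 at 1 day, a log2 difference of 0.73. Neither pair overlapped (exact permutation p = 0.00794, adjusted p = 0.0381 in each). This ratio shares Col1a1 with that of Col1a1 to Col1a2, which differed by -1.03 and -1.08 over the same times. The 2 ratios are therefore not separate results. Col4a1 relative to Col1a2 was not tested, so a shift against fibrillar chains other than Col1a1 is not shown. Col4a2 relative to Col4a1 was at 0.336, 0.31, 0.361, 0.296 and 0.256 in cabergoline-treated mice at 60 days, against 0.523, 0.43, 0.531, 0.38 and 0.55 at 1 day, a log2 difference of -0.63 (exact permutation p = 0.00794, adjusted p = 0.0381). In untreated mice the log2 difference was -0.35 (exact permutation p = 0.0714, adjusted p = 0.245), and untreated 60 days replicate 2 was at 0.625 where the others of its group were at 0.325 to 0.356. Col4a1 relative to Col1a1 in cabergoline-treated mice at 60 days was at a log2 difference of 0.98 from nulliparous mice (exact permutation p = 0.0159, adjusted p = 0.0635), and at 0.47 without nulliparous replicate 5. Col3a1 relative to Col1a1 had no adjusted p below 0.275 in any of its 6 comparisons.

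The genes that make, bind and degrade collagen were described from lists. Of 31 genes of collagen synthesis and processing, 30 were tested between cabergoline-treated mice at 60 days and 1 day, and 7 were called higher and 4 lower (10.2% of all genes were called higher and 11.7% lower in this comparison, which is also the background of the lists that follow), with a median log2 fold change of 0.61 against 0.11 for all genes. The smallest p were those of Mia3 (-1.05 ± 0.21, adjusted p = 0.0069), which loads procollagen for export, Adamts14 (1.19 ± 0.24, adjusted p = 0.0073), an amino-propeptidase, Bmp1 (1.26 ± 0.34, adjusted p = 0.0244), the carboxy-propeptidase, and Crtap (0.91 ± 0.24, adjusted p = 0.0247), a partner of prolyl 3-hydroxylase, all in limma. Crtap was also the 1 member of 30 called in untreated mice, at a mean of 40.7 ± 15.1 scaled TPM at 60 days against 13.5 ± 1.81 at 1 day (SD, n = 5 each), a log2 fold change of 1.44 ± 0.28 (adjusted p = 0.0399, limma). Of 10 collagen receptors tested in cabergoline-treated mice between the times, 2 were called higher, Itga11 (1.40 ± 0.37) and Ddr2 (0.86 ± 0.28), receptors of mesenchymal cells, and 1 lower, Ddr1 (-2.50 ± 0.36), a receptor tyrosine kinase of epithelial cells.

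Of 16 laminins, nidogens and other basement membrane partners, 1 was called higher and 2 lower. Nid2 (1.45 ± 0.36), a nidogen that links laminin to type IV collagen, was called higher and Lama1 (-2.71 ± 0.43), a laminin α chain, was called lower in cabergoline-treated mice at 60 days than at 1 day. Of 12 collagen-binding matrix proteins tested, 4 were higher and 2 lower, led by Vwf (3.22 ± 0.53), a collagen-binding protein of endothelium and platelets, Fn1 (1.12 ± 0.27), Postn (-1.94 ± 0.53) and Bgn (1.10 ± 0.31). Vwf was called in untreated mice as well, at 120 ± 66.7 scaled TPM at 60 days against 11.9 ± 3.13 at 1 day (SD, n = 5 each), the 1 of 12 that was. Of 8 collagenases, gelatinases and their inhibitors tested in cabergoline-treated mice, 0 were higher and 2 lower, both inhibitors: Timp1 was at 0.514 ± 0.321 scaled TPM at 60 days against 29.8 ± 13.7 at 1 day (SD, n = 5 each), with a log2 fold change of -4.24 ± 0.36 (adjusted p = 4.85e-05, limma), and Timp2 had -1.44 ± 0.35. In these lists 0 genes were called between cabergoline-treated and untreated mice at either time or between multiparous and nulliparous mice, where 0% of all genes were called. The interaction of treatment and time called 0 of them too, so their changes between the times are not shown to differ with cabergoline. In untreated mice the 8 collagenases, gelatinases and inhibitors tested ranged from -3.38 to 1.44 in log2 fold change between the times.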

How the data were processed

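RNA-seq was performed on mammary organoids of 25 mice, 5 in each of 5 groups, with groups and numbers as the labels have them. Per the submitters' processing notes, the authors quantified reads with Salmon on GRCm38, and they deposited TPM, which sum to 1e+06 in each library, of 34866 genes in 1 table. Neither their annotation release nor the strandedness of counting is given in the sources used here. The depth is unknown, so no interval that needs it is given. The authors tested counts with edgeR. For cabergoline at both times and for multiparous against nulliparous mice, the paper reports genes at an adjusted p of 0.05 or less. The 0% of genes called in these comparisons here is therefore that of the test described next. As counts were not used here, limma 3.58.1 (R 4.3.3, lmFit and eBayes with trend) was run on log2(scaled TPM + 1), on the libraries of a comparison alone and on genes that reached 1 TPM in 5 or more of them. Genes were called at a Benjamini-Hochberg adjusted p of 0.05 or less.

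Scaling divided the TPM of a library by 1 median-of-ratios factor over 9778 genes at 1 TPM or more in all 25 libraries. Ratios of 2 chains used deposited TPM and an exact two-sided permutation test. A symbol was found for 34582 genes, with positions from the GENCODE annotation of GRCm38 and promoter windows from RefSeq (GRCm38.p6). In that annotation 13 of the 44 collagens share an exon with another gene, 10 of them on the opposite strand, among them Col10a1 (with Nt5dc1), Col9a3 and the pair Col4a1 and Col4a2. Among those on the same strand are Col3a1 and Col20a1.

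The members and gene lists were chosen with earlier results of these data known. Named genes are 9 collagens in every library, the collagens called, and where none was called the 3 higher and 3 lower collagens with the smallest p in a comparison, and from each other list up to 4 called members with the smallest p. Others were named after their values were seen: Col4a5, Col4a6, Col7a1 and Col16a1 in the account of epithelial markers, and the chains of nulliparous replicate 5. Alternatives were TPM as deposited, scaling within the comparison, quantile normalization, another pseudocount, other filters, all libraries in the fit, library quality weights, a replicate block and leaving out each library. Python 3.11.15 with numpy 2.4.6, pandas 2.3.3 and matplotlib 3.10.9 was used for ratios and figures, and the scripts were tested on simulated data. The dose is that of the labels, and the methods of the study give a slightly higher one. The paper's legends show fewer mice in some groups than the labels list, and all 5 per group were used. No libraries were duplicates (highest correlation between libraries 0.9784). Not every member of the basement membrane list is reported here.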

Additional observations from a re-analysis of the deposited data

Results flagged for a closer look

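In 6 of the 65 groups of 5 libraries that were examined for single collagens and ratios, 1 library lay far from the 4 others of its group, where chance gives about 5% of groups. Cabergoline 60 days replicate 3 had 215 scaled TPM of Col1a2, against 69.6 to 89.4 in the others, and 409 of Col3a1, against 97.1 to 102. Untreated 60 days replicate 2 had 13.1 scaled TPM of Col17a1, against 0.68 to 1.46, and a ratio of Col4a2 to Col4a1 of 0.625, against 0.325 to 0.356. The ratio of Col1a1 to Col1a2 was 0.825 in cabergoline 60 days replicate 4, against 0.532 to 0.538. The ratio of Col4a1 to Col1a1 was 0.36 in nulliparous replicate 5, against 1.73 to 2.73. Cabergoline 60 days replicate 4 had 14469 genes at 1 TPM, against 17436 to 18298 in the others of its group. Its endothelial markers summed to 2019 scaled TPM, the highest of that group. Values of cell type markers in the other flagged libraries stand in the report. The part of any of these in the levels was not tested.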

How the results depend on the processing

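Under every alternative run, 0 collagens were called for cabergoline at either time, against nulliparous mice or in the interaction of treatment and time. The comparisons between the times depended on the processing, and the cause was not tested. With TPM as deposited, 23 collagens were called in untreated mice at 60 days against 1 day (median 1.88) and 24 in cabergoline-treated mice (median 1.59). In untreated mice Col22a1 was then at 0.55, Col17a1 at 0.17 and Col3a1 at 1.01, and for cabergoline at 1 day Col4a2 was at 0.18, Col4a1 at 0.23 and Col15a1 at 0.25, all of the opposite sign to the scaled values. Library quality weights gave 18 calls in untreated and 14 in cabergoline-treated mice between the times, and turned Col4a5 for cabergoline at 1 day to -0.15, Col6a4 in cabergoline-treated against nulliparous mice to -0.49 and, in the interaction, Col10a1 to -0.31, Col26a1 to -0.52 and Col5a3 to -0.40. In untreated mice between the times a filter of 5 TPM gave 1 call, all 25 libraries in the fit gave 2 and leaving out the pair at odds in epithelial markers, chosen after the data were seen, gave 6. In cabergoline-treated mice no filter, a filter of 5 TPM and all 25 libraries in the fit gave 4 each.

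Same-numbered libraries of different groups had correlations of their deviations between -0.73 and 0.65, with 10 of 30 pairs over 0.1. Such correlations alone can neither show nor exclude a pairing, and the main fits treated the mice as unpaired. With the number as a replicate block, 6 collagens were called in cabergoline-treated mice between the times and 0 in every other comparison, and Col28a1 was the call lost. Over all genes, the block left 4 higher and 3 lower in untreated mice between the times, against 52 and 149.

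Leaving out 1 library gave 0 to 1 calls in untreated mice between the times, 1 without untreated 60 days replicate 5 or untreated 1 day replicate 3. In cabergoline-treated mice it gave 3 to 8 calls, with 3 without cabergoline 1 day replicate 1 and 4 without replicates 2 or 3 of 1 day or replicates 1 or 2 of 60 days. Beside the collagen medians given in the report, the log2 fold changes that crossed 0 were Col15a1 for cabergoline at 1 day (-0.28 to 0.05), Col6a4 for cabergoline at 60 days (-0.33 to 0.79, below 0 without cabergoline 60 days replicate 4) and, in the interaction, Col26a1 (-0.02 to 0.58) and Col5a3 (-0.03 to 0.87). Ratios for cabergoline at 1 day ranged from -0.14 to 0.03 for Col3a1 over Col1a1, -0.14 to 0.01 for Col1a1 over Col1a2, -0.09 to 0.04 for Col4a2 over Col4a1 and -0.22 to 0.02 for Col4a1 over Col1a1. At 60 days Col1a1 over Col1a2 ranged from -0.12 to 0.07. Between the times in cabergoline-treated mice Col3a1 over Col1a1 ranged from -0.21 to 0.15, Col1a1 over Col1a2 from -1.15 to -0.99 and Col4a2 over Col4a1 from -0.71 to -0.56. In untreated mice Col4a2 over Col4a1 ranged from -0.53 to -0.29, past the threshold only without untreated 60 days replicate 2, and Col4a1 over Col1a1 from 0.65 to 0.86. In each of the 3 ratios that lost the threshold it was lost in 5 of the 10 leave-outs, where 4 libraries remained in a group. Against nulliparous mice, Col3a1 over Col1a1 ranged from -0.13 to 0.69 in cabergoline-treated and -0.49 to 0.33 in untreated mice, Col1a1 over Col1a2 from -0.10 to 0.17 and -0.07 to 0.16, and in cabergoline-treated mice Col4a2 over Col4a1 from -0.10 to 0.02 and Col4a1 over Col1a1 from 0.47 to 1.20, past the threshold only without nulliparous replicate 4. TPM holds no depth, so the counting error of low collagens is unknown.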
